A study of Mus musculus with 48 samples.

Results

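The microglial receptors Trem2 and Clec7a and the genes through which they signal were examined as a set of 9 genes of the 22932 with a named probe: Trem2, Tyrobp, Clec7a, Syk, Plcg2, Card9, Hcls1, Vav1 and Axl. Members were found by gene symbol, and 12 probes stood for them, with 2 probes each for Syk, Card9 and Axl. Levels were measured on 1-color Agilent arrays in the cortex and hippocampus of 24 mice, 48 arrays in all and 6 per group. APP/PS1 mice are heterozygous male APPswe/PS1dE9 animals, which carry human amyloid precursor protein and presenilin 1 transgenes under prion promoter elements and deposit amyloid, and WT mice are their littermates on a C57Bl6/J background. Both genotypes drank plain water (H2O) or MSX-3 at 0.3 g/L. MSX-3 is the soluble prodrug of MSX-2, an antagonist of the adenosine receptor encoded by Adora2a. Treatment started at 3 months of age according to the sample labels, 4 months according to the text on the series, and ended at 9 to 10 months.

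TREM2 is a lipid-sensing receptor of microglia, the resident macrophages of the brain, and has no signalling tail of its own. It relies on TYROBP (DAP12), an adaptor whose ITAM motif recruits the kinase SYK once phosphorylated. CLEC7A (Dectin-1) is a lectin receptor for fungal beta-glucan that carries its own ITAM-like motif and also engages SYK. Downstream, PLCG2 produces calcium and diacylglycerol signals, CARD9 links Dectin-1 to NF-kappaB, and VAV1 and HCLS1 act on small GTPases and the actin cytoskeleton. AXL is a receptor kinase of the TAM family that takes part in the clearance of dying cells. Trem2, Tyrobp, Clec7a and Axl are known as genes of the microglia that surround amyloid plaques.

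On 2 arrays, both of WT cortex, the spot grid was not located by the scanner software, 1 on H2O and 1 on MSX-3. These were left out, which left 46 arrays and 5 mice in each WT cortex group. On the readable arrays, between 55.83% and 75.51% of the probes were well above background. Prnp, part of which the prion vector of the transgenes carries, was higher in APP/PS1 than in WT mice by 1.72 (hippocampus) and 2.03 (cortex) on the log2 scale on H2O. The summed level of 5 hippocampal marker genes, in units of the array's 75th percentile, was 12.5 to 18.3 in hippocampus and 0.693 to 1.02 in cortex, and that of 4 cortical ones was 43.6 to 61.6 in cortex and 8.69 to 15 in hippocampus. Arrays were scanned on 2 days and 7 slides, unevenly between genotypes: in the hippocampus on H2O, 6 of 6 APP/PS1 arrays and 2 of 6 WT arrays were scanned on the first day. Slide, day and genotype thus overlap in part.

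Promoter sequences are shown for Trem2, Clec7a, Hcls1 and Vav1, members that were higher together in APP/PS1 mice (below). They come from a table of RefSeq promoters on GRCm38.p6, in which 8 of the 9 members were matched, Tyrobp being the other. Each covers the 250 bases before the gene's most upstream start in that table, 5′ to 3′ on the strand of the gene. For Syk, Card9 and Axl, which are not shown, this window lies within or overlaps the bounds of the gene. Capitals mark matches on either strand to AGGAAG (core of PU.1 and other ETS factors), GAGGAAG (the longer PU.1 site, which contains the core) or TGANTCA (AP-1).
Trem2, chr17:48346151-48346400, plus strand: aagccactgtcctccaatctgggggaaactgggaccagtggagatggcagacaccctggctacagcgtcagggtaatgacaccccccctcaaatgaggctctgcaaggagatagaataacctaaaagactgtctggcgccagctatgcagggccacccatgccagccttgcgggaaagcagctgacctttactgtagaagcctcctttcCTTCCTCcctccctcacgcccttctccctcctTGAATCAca
Clec7a, chr6:129472786-129473035, minus strand: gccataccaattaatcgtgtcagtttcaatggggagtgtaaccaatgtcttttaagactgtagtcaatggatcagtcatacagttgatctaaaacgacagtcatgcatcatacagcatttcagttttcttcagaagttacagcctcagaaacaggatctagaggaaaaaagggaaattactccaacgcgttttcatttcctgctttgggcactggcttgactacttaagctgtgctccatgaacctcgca
Hcls1, chr16:36934733-36934982, plus strand: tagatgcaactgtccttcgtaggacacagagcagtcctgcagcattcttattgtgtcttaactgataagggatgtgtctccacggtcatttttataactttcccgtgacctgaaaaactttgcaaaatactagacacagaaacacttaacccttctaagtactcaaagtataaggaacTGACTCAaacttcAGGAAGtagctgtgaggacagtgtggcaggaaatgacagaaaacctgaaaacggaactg
Vav1, chr17:57278850-57279099, plus strand: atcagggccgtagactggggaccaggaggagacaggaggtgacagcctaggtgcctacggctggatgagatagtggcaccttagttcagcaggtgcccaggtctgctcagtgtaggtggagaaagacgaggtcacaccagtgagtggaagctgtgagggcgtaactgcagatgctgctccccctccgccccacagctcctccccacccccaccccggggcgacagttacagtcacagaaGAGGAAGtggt
GAGGAAG lay from 11 to 5 bases before the Vav1 start and, on the other strand, from 41 to 35 bases before the Trem2 start. It was also found for Axl, and 10.6% of all 32851 promoters of the table hold it. The shorter AGGAAG was found in 5 of the 8 member promoters (Trem2, Card9, Hcls1, Vav1 and Axl) against 29.5% of all. TGANTCA was found for Trem2 and Hcls1, against 6.75% of all. The windows of Clec7a, Plcg2 and Syk hold none of the 3 motifs. These matches describe the letters of the windows and are not evidence of binding.

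Of the 9 members, 8 passed the filter on low values in each tissue, for which some group had to show the probe well above background on 4 arrays or more. Card9 did not pass: its brighter probe was well above background on 10 of 46 arrays (0 to 3 per group) and its other probe on 0. No member had a saturated spot. All levels are log2 intensities relative to the 75th percentile of the array, where 0 is that percentile. A member was called changed at a fold change of at least 1.5 and an adjusted p under 0.05, from limma with Benjamini-Hochberg adjustment over all probes kept.

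In the cortex of mice on H2O, 6 of the 8 members tested were higher in APP/PS1 than in WT mice (Clec7a, Trem2, Tyrobp, Hcls1, Vav1 and Plcg2) and none was lower, while 1.35% of all 37680 probes tested were called higher. The median log2 fold change was 1.25 over the members and -0.03 over all probes tested. In the hippocampus, 5 of 8 were higher (the same genes without Plcg2), while 0.351% of 38128 probes were called higher, and the median was 0.62 against -0.03. In mice on MSX-3, 7 of 8 were higher in the cortex (1.29% of all probes) and 3 of 8 in the hippocampus (0.309%). Every APP/PS1 array lay above every WT array for 7 of 8 members in the cortex on H2O (2.1% of all probes), 7 on MSX-3 (2.34%), 5 in the hippocampus on H2O (0.764%) and 5 on MSX-3 (0.585%). The probe of Clec7a was named only through the study's lists of probes changed between the genotypes. Its place in these counts is therefore not independent of its change. Since the tissue was measured in bulk, more cells of a type and more RNA per cell cannot be told apart.

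Trem2 was measured on all 46 arrays. In the cortex of WT mice on H2O its levels were 1.48, 1.52, 1.55, 1.68 and 1.71. In APP/PS1 mice on H2O they ran from 3.49 over a median of 3.91 to 4.07. Every APP/PS1 cortex was thus above every WT cortex, and the difference was 2.29 ± 0.11 on the log2 scale (SE), a 4.9-fold change (adjusted p = 7.3e-07). In the hippocampus, WT mice on H2O lay between 1.45 and 1.86 (median 1.73) and APP/PS1 mice between 2.81 and 3.26 (median 2.91). These groups did not overlap either, and the difference of 1.26 ± 0.1 was a 2.4-fold change (adjusted p = 7.45e-05). On MSX-3 the fold change of Trem2 was 5.47 in the cortex (adjusted p = 7.71e-07) and 2.42 in the hippocampus (adjusted p = 0.000251).

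Tyrobp, the adaptor of Trem2, followed it closely. WT cortex on H2O gave 1.14, 1.26, 1.48, 1.5 and 1.6, and APP/PS1 cortex gave 3.26 to 3.93 (median 3.72). The groups were apart, with a difference of 2.29 ± 0.13 and a 4.9-fold change (adjusted p = 2.64e-06). In the hippocampus on H2O the levels ran from 1.15 to 1.81 (median 1.53) in WT and from 2.53 to 3.01 (median 2.74) in APP/PS1 mice, without overlap, and the difference was 1.22 ± 0.13 (2.33-fold, adjusted p = 0.000736). On MSX-3 the change was 5.3-fold in the cortex and 2.15-fold in the hippocampus (adjusted p = 3.29e-07 and 0.000698). The gene lies on chromosome 7 between 30413782 and 30417582 (GRCm38.p6), with 129 bases between it and Hcst, the gene of the related adaptor DAP10. Hcst was also higher in APP/PS1 mice on H2O, by 1.36 ± 0.14 in the cortex and 1.19 ± 0.1 in the hippocampus (adjusted p = 0.000227 and 0.000117).

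Clec7a had the largest change of the members. In the cortex of WT mice on H2O its levels were -5.39, -5.32, -5.11, -4.96 and -4.42, near the bottom of the range but well above background on 5 of 5 arrays. In APP/PS1 mice on H2O they ran from 0.22 over 0.46 to 0.73. The groups were far apart, and the difference of 5.51 ± 0.17 was a 45.4-fold change (adjusted p = 4.26e-08), the third largest fold among all probes tested. In the hippocampus the levels were -4.48 to -3.87 (median -4.22) in WT and -1.19 to -0.61 (median -0.96) in APP/PS1 mice on H2O. These did not overlap, and the change was 9.87-fold (3.3 ± 0.13, adjusted p = 1.75e-07). On MSX-3 the change was 63.4-fold in the cortex, where 3 of 5 WT arrays were well above background, and 16.2-fold in the hippocampus (adjusted p = 3.29e-07 and 1.33e-06). The size of these folds depended on how background was treated. With a normexp correction and an offset of 50 the change on H2O was 13.5-fold in the cortex and 4.59-fold in the hippocampus, and on MSX-3 it was 15.9-fold and 6.19-fold, all still called.

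**Figure D1:**
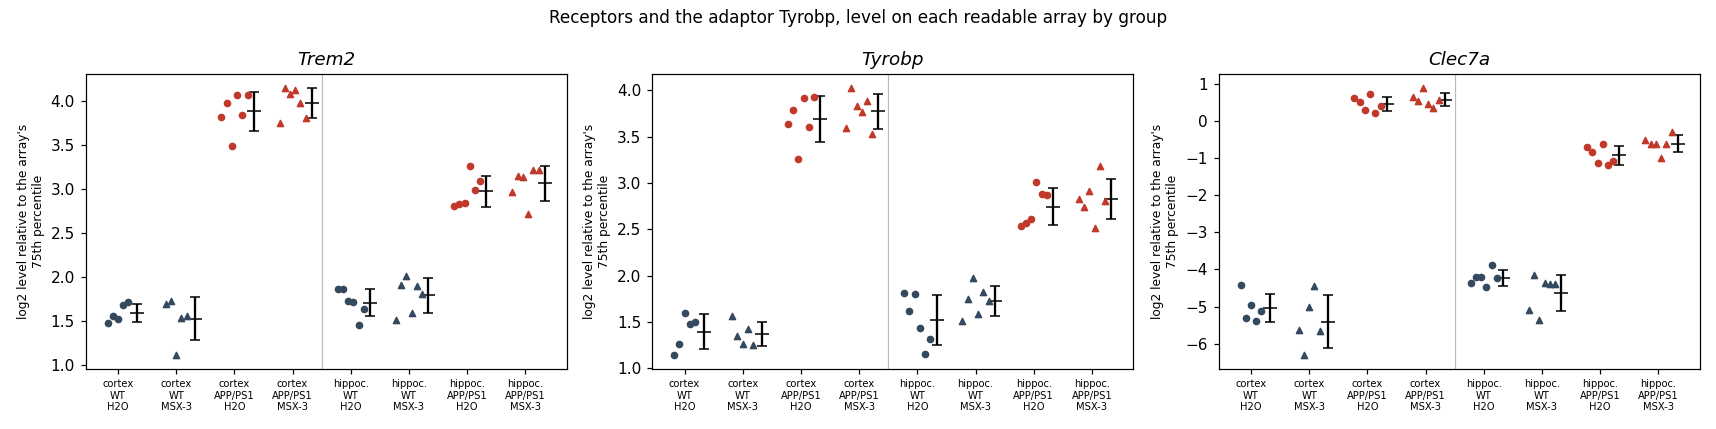
Log2 level relative to the array's 75th percentile (y axis) of Trem2, Tyrobp and Clec7a in the 8 groups (x axis). Points are single arrays (red APP/PS1, dark WT, circles H2O, triangles MSX-3), and bars give mean and SD. For each gene both APP/PS1 groups lie above both WT groups of the same tissue, and the cortex of APP/PS1 mice lies highest, with Trem2 means of 3.88 (H2O) and 3.98 (MSX-3).

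Of the signalling genes, Hcls1 and Vav1, which are expressed in blood-derived cells and microglia, changed in both tissues on H2O. Hcls1 in WT cortex was at -1.18, -1.14, -1.06, -1.03 and -0.9, and in APP/PS1 cortex between 0.07 and 0.55 (median 0.27). Every APP/PS1 array was above every WT array, with a 2.54-fold change (1.34 ± 0.1, adjusted p = 1.4e-05). In the hippocampus Hcls1 ran from -1 to -0.73 in WT and from -0.53 to -0.11 in APP/PS1 mice. The change of 1.52-fold was just past the fold limit (0.6 ± 0.08, adjusted p = 0.00399), and it dropped under the limit without APP/PS1 mouse 323, APP/PS1 mouse 81 or WT mouse 56 (0.57, 0.58 and 0.58).

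Vav1, an exchange factor for Rac, was at -0.97, -0.89, -0.81, -0.76 and -0.67 in WT cortex on H2O and between 0.09 and 0.56 (median 0.31) in APP/PS1 cortex. The groups did not overlap, and the change was 2.24-fold (1.16 ± 0.1, adjusted p = 4.54e-05). In the hippocampus it ran from -0.86 to -0.48 in WT and from -0.2 to 0.2 in APP/PS1 mice, also apart, a 1.55-fold change (0.64 ± 0.09, adjusted p = 0.00738). On MSX-3, Hcls1 and Vav1 were called in the cortex (2.77-fold and 2.49-fold). In the hippocampus on MSX-3 the groups did not overlap for either gene, but neither was called: Hcls1 differed by 0.59 ± 0.11 with an adjusted p of 0.057, and Vav1 by 0.5 ± 0.09, under the fold limit, with an adjusted p of 0.0421.

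Plcg2, the phospholipase downstream of Syk, was called in the cortex alone. WT cortex on H2O gave -1.43, -1.35, -1.27, -1.15 and -1.12, and APP/PS1 cortex gave -0.43 to 0.06 (median -0.17). The groups did not overlap, and the change was 2.11-fold (1.08 ± 0.1, adjusted p = 1e-04). In the hippocampus the WT levels of Plcg2 ran from -0.55 to 0.05 (median -0.41) and overlapped with those of APP/PS1 mice (-0.24 to 0.09). The difference there was 0.24 with a 95% interval from 0.01 to 0.48 (adjusted p = 0.476). On MSX-3 the change was 1.89-fold in the cortex (adjusted p = 0.000129) and 1.23-fold in the hippocampus (adjusted p = 0.931).

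Syk, the kinase that both receptors share, was not called in any of the 4 comparisons of the genotypes. In the cortex on H2O its levels were -2.75, -2.69, -2.47, -2.4 and -2.2 in WT mice and -2.22 to -1.73 (median -2.04) in APP/PS1 mice, so that the groups overlapped. The difference was 0.46 with an interval from 0.2 to 0.73 (adjusted p = 0.106). In the hippocampus it was -0.02 with an interval from -0.24 to 0.19, which leaves out a 1.5-fold change in either direction. The second, dimmer Syk probe differed by -0.08 ± 0.26 in the cortex and -0.71 ± 0.26 in the hippocampus (adjusted p = 0.919 and 0.368).

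Axl was called in 1 of the 4 comparisons. In the cortex on H2O, WT mice had 2.27, 2.3, 2.38, 2.47 and 2.49 and APP/PS1 mice 2.54 to 3.12 (median 2.84). The groups did not overlap, but the difference of 0.44 ± 0.11 had an adjusted p of 0.0745. On MSX-3 the WT cortex gave 1.89, 2.03, 2.12, 2.15 and 2.32 and the APP/PS1 cortex 2.6 to 3.1, a 1.67-fold change that was called (adjusted p = 0.00507). It was not called with the mean of both Axl probes (0.62, adjusted p = 0.441), the second probe being dim. In the hippocampus the difference was 0.26 on H2O and 0.17 on MSX-3 (adjusted p = 0.531 and 0.957). For Card9, not kept by the filter, the mean differences between the genotypes on H2O were 0.17 ± 0.32 in the cortex and 0.3 ± 0.45 in the hippocampus when tested without a filter (adjusted p = 0.845 and 0.827).

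**Figure D2:**
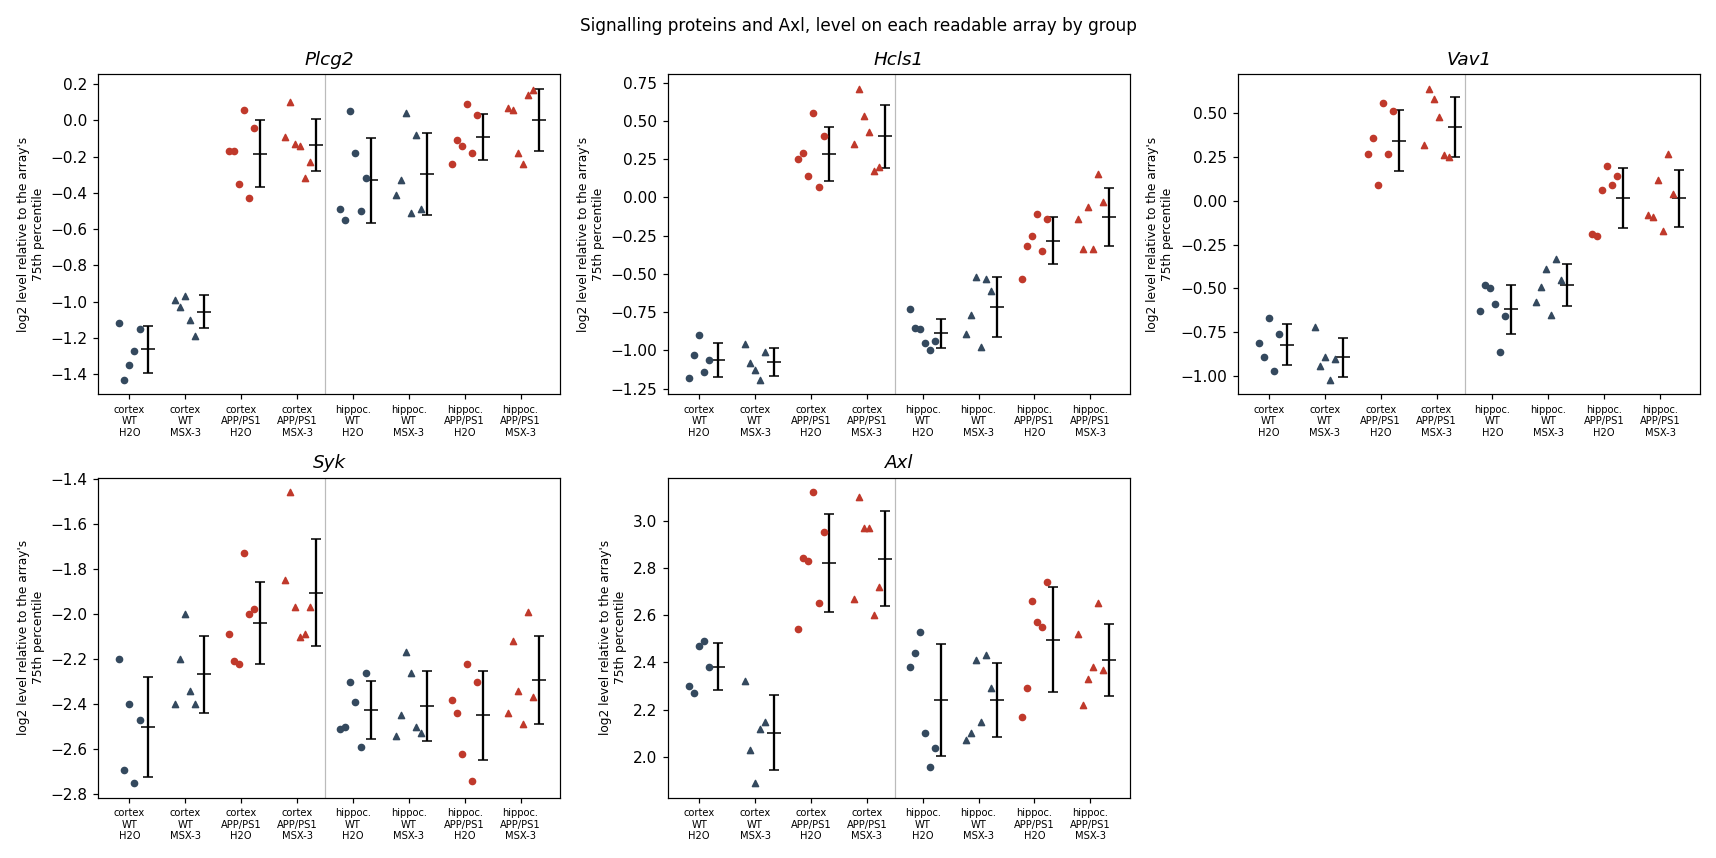
Log2 level relative to the array's 75th percentile (y axis) of Plcg2, Hcls1, Vav1, Syk and Axl in the 8 groups (x axis), single arrays as points with mean and SD as bars. Hcls1 and Vav1 separate the genotypes in both tissues, while Plcg2 separates them in the cortex only, its WT hippocampus being at a mean of -0.33 on H2O against -1.26 in WT cortex.

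Within the first scan day, the cortex differences on H2O were 2.38 for Trem2, 2.5 for Tyrobp, 5.31 for Clec7a, 1.39 for Hcls1, 1.21 for Vav1 and 1.09 for Plcg2 (5 APP/PS1 and 2 WT arrays). Within the second day (1 and 3 arrays) they were 2.18, 2.12, 5.77, 1.28, 1.07 and 1.09. In the hippocampus only the first day holds both genotypes on H2O (6 and 2 arrays), with differences of 1.29 for Trem2, 1.37 for Tyrobp, 3.43 for Clec7a, 0.67 for Hcls1 and 0.64 for Vav1. On MSX-3, the first day gave cortex differences of 2.37, 2.43, 6.05, 1.49 and 1.38 for the same 5 genes. In the hippocampus on MSX-3 they were 1.2, 1.1, 4.13, 0.54 and 0.47 on the first day and 1.43, 1.11, 3.81, 0.69 and 0.55 on the second. The sizes were thus close to the pooled ones, but the calls were fewer in the hippocampus on H2O. With the scan day as a block Hcls1 and Vav1 were no longer called (adjusted p = 0.0722 and 0.191, limma). With the slide as a block Clec7a alone was called (3.59, adjusted p = 0.000866, limma), with Trem2 at 1.15 (0.169) and Tyrobp at 1.17 (0.185). There only slides 2 and 5 hold both genotypes, with 1 array of each genotype on both, so these slide-block values rest on few arrays. In the cortex on H2O only slide 5 holds both genotypes (2 APP/PS1 arrays and 1 WT array), and the slide-block differences rest on it. They were 0.82 for Plcg2 and 1.13 for Vav1, both no longer called, and 27.5-fold for Clec7a.

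**Figure D3:**
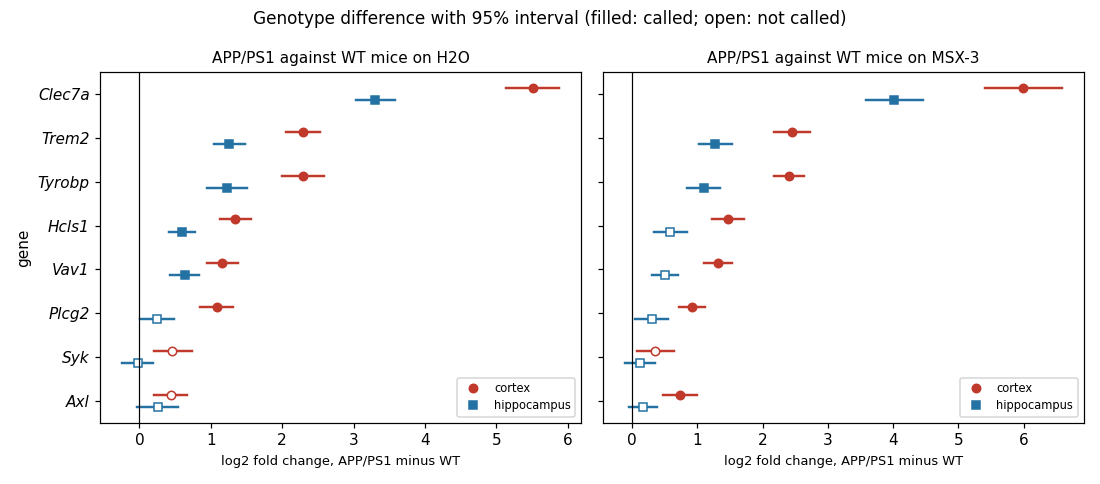
Log2 fold change of APP/PS1 against WT mice (x axis) for the 8 members tested (y axis), on H2O (left) and MSX-3 (right), with 95% intervals. Filled symbols were called and open ones were not. The cortex value lies above the hippocampus value for every member, from 5.51 against 3.3 for Clec7a to 0.44 against 0.26 for Axl on H2O.

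Whether the genotype difference was larger in the cortex than in the hippocampus was tested directly, as the difference of the differences. On H2O it was called for 5 of 8 members, while 0.24% of 36743 probes were called in that direction. It was 2.2 ± 0.21 for Clec7a (adjusted p = 8.97e-06), 1.07 ± 0.19 for Tyrobp (0.0144), 1.03 ± 0.15 for Trem2 (0.00122), 0.84 ± 0.15 for Plcg2 (0.0144) and 0.74 ± 0.12 for Hcls1 (0.00678). For Vav1 it was 0.53 ± 0.13 (adjusted p = 0.152), for Syk 0.49 ± 0.15 (0.58) and for Axl 0.18 ± 0.17 (0.974). Both tissues came from the same mice, and with the mouse as a block the value of Tyrobp was 1.01 and not called (adjusted p = 0.101). Tyrobp was also not called without WT mouse 308 (1.02, adjusted p = 0.0628), nor Plcg2 without APP/PS1 mouse 255 (0.8, 0.0539) or WT mouse 318 (0.78, 0.0532). The size for Clec7a depends on its low WT levels in both tissues and on how background was treated. With normexp its genotype difference on H2O was 3.76 in the cortex and 2.2 in the hippocampus. On MSX-3 these were 3.99 and 2.63.

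On MSX-3 the difference between the tissues was called for Clec7a (1.97 ± 0.35), Tyrobp (1.3 ± 0.15), Trem2 (1.18 ± 0.17), Hcls1 (0.88 ± 0.16) and Vav1 (0.82 ± 0.13), with adjusted p between 0.000135 and 0.0103, against 0.188% of all probes. With the mouse as a block, Hcls1 (0.89, adjusted p = 0.162) and Vav1 (0.82, adjusted p = 0.0952) were not called, and with the slide as a block no member was. Clec7a was not called without APP/PS1 mouse 281 (1.9, adjusted p = 0.053) or WT mouse 77 (1.85, adjusted p = 0.0613), nor Hcls1 without WT mouse 49 (0.82, adjusted p = 0.0554). In WT mice on H2O, cortex and hippocampus differed for 2 members, and 6.91% of all probes were lower in the cortex. Plcg2 was lower in the cortex by 0.93 ± 0.12 (log2 fold change -0.93, adjusted p = 0.000115) without overlap, and Clec7a by 0.81 ± 0.17 (-0.81, adjusted p = 0.00402) with overlap. With the mouse as a block, the Clec7a difference had an adjusted p of 0.0533.

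The order of the 8 group means was the same for Trem2 and Tyrobp: APP/PS1 cortex, APP/PS1 hippocampus, WT hippocampus and WT cortex. Within each of these pairs the H2O and MSX-3 means differed by less than the larger SD, as did the WT hippocampus on H2O and the WT cortex on H2O. For Trem2 the steps between the 3 upper tissue and genotype pairs were 0.82 and 1.18, against SDs of at most 0.22. For Clec7a the step from APP/PS1 to WT hippocampus was 3.3, and the step between the MSX-3 and H2O groups of APP/PS1 hippocampus (0.32) was larger than the SDs of 0.23 and 0.25. The order was different for Plcg2, where the 4 APP/PS1 groups and both WT hippocampus groups followed each other with no step beyond the SD, from 0 to -0.33, and WT cortex lay apart at -1.05 (MSX-3) and -1.26 (H2O). For Syk the one step beyond the SD lay below APP/PS1 cortex, whose means were -1.91 (MSX-3) and -2.04 (H2O).

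MSX-3 was compared with H2O within each genotype, to ask whether the drug shifts these genes. None of the 8 members was called in either genotype or tissue by limma, and neither was any other probe (0%). In APP/PS1 cortex the differences ran from 0.02 to 0.13, and 0 of 8 members had an unadjusted p under 0.05. For Trem2 the difference was 0.1 with a 95% interval from -0.15 to 0.35, for Tyrobp 0.08 (-0.19 to 0.36) and for Clec7a 0.11 (-0.13 to 0.35), so that the intervals leave out a 1.5-fold change. In APP/PS1 hippocampus they ran from -0.08 to 0.32 over the brightest probes, of which 1 of 8 had an unadjusted p under 0.05. The second, dimmer Syk probe differed by 0.65 ± 0.23 there (unadjusted p = 0.0163, adjusted p = 0.976, limma). The 1 of 8 was Clec7a. Its levels were -1.19 to -0.61 (median -0.96) on H2O and -1 to -0.29 (median -0.62) on MSX-3, which overlap, and the difference was 0.32 with an interval from 0.02 to 0.61 (adjusted p = 0.976, limma).

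In WT mice, MSX-3 and H2O differed by -0.37 to 0.23 in the cortex, with 2 of 8 members under an unadjusted p of 0.05 (Axl at -0.28 and Plcg2 at 0.21, both with an adjusted p of 0.569), and by -0.4 to 0.21 in the hippocampus, with 0 of 8. The difference of the genotype effect between MSX-3 and H2O mice was called for no member either. In the hippocampus it was 0.72 ± 0.25 for Clec7a (adjusted p = 0.89, limma), the 1 member of 8 whose brightest probe had an unadjusted p under 0.05. The dimmer Syk probe was at 1.02 ± 0.4 there (unadjusted p = 0.0167, adjusted p = 0.89, limma). In the cortex it was 0.48 ± 0.33 for Clec7a and 0.3 ± 0.16 for Axl, with 0 of 8. The wide interval of Clec7a in WT cortex, from -1.08 to 0.34, goes with its low level there.

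**Figure D4:**
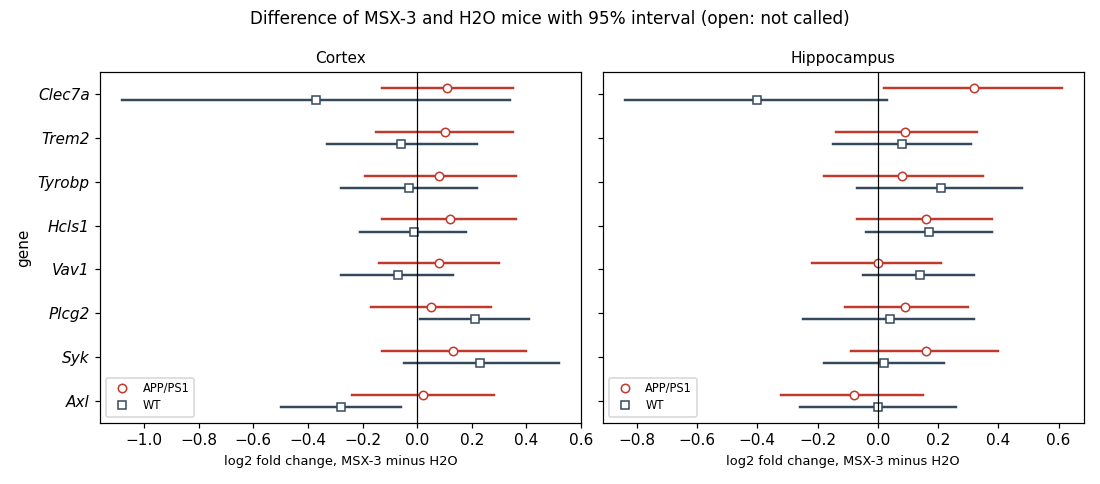
Log2 fold change of MSX-3 against H2O mice (x axis) with 95% intervals for the 8 members tested (y axis), in cortex and hippocampus. None was called. The APP/PS1 values lie between -0.08 and 0.32, and the widest interval is that of Clec7a in WT cortex.

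How far the members varied together from mouse to mouse was described by correlation over the 46 arrays after the mean of each group was subtracted, so that genotype, tissue and agent do not enter. Arrays share slides and scale, and the values are given without a test. Hcls1 and Vav1 were the closest pair of 36 (Pearson r = 0.838), followed by Trem2 and Tyrobp (0.796) and Tyrobp and Vav1 (0.785). Axl went with Hcls1 (0.742) and Vav1 (0.73), and Syk with Plcg2 (0.574). The correlation of Clec7a was -0.106 with Trem2, -0.0464 with Tyrobp and 0.201 with Syk, although over all arrays, where the groups count, it was 0.959 with Trem2. Its low WT levels limit this: its SD was 0.39 (H2O) and 0.71 (MSX-3) in WT cortex and 0.2 and 0.48 in WT hippocampus. In the APP/PS1 groups the SD was 0.19 to 0.25. Spread near background thus weighs on these correlations, and whether Clec7a varied apart from Trem2 was not tested.

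Genes outside the set with the pattern most like Trem2 over the 46 arrays, of 15861 genes, were Cd68 (r = 0.989), C1qc (0.986), Ccl6 (0.983), Lyz2 (0.982) and Rab7b (0.979). After subtraction of the group means they included Fcgr2b (0.863), C1qc (0.809), Laptm5 (0.798) and Ptpn18 (0.766). For Clec7a they were Ccl4 (0.984), Cst7 (0.984), Ccl6 (0.977), Prnp (0.976) and Ccl3 (0.973), and after subtraction Tmem170b (0.607), Ccl4 (0.587), Coro2a (0.583), Sertad4 (0.577) and Traf6 (0.577). The Clec7a values after subtraction share the limit of its low WT levels.

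As both tissues were taken from each mouse, the level of a member in the cortex could be set against that in the hippocampus of the same APP/PS1 mouse. The 9 members were examined in all 12 mice and in the 6 mice of each agent. Over the 12 mice Clec7a had r = 0.642 and a Spearman coefficient of 0.678 (p = 0.0234 and 0.0199, two-sided permutation tests, not adjusted), r was 0.62 without the 2 mice farthest from the cortex median, and 5.45% of all probes had an r as high. In the 6 mice on H2O, the order of Clec7a was the same in both tissues: mice 325, 261, 81, 259, 255 and 323 had 0.22, 0.3, 0.41, 0.51, 0.61 and 0.73 in the cortex and -1.19, -1.14, -1.09, -0.84, -0.69 and -0.61 in the hippocampus. Here r was 0.974 and the Spearman coefficient was 1 (p = 0.00139 and 0.00278, two-sided exact permutation tests, not adjusted), and r was 0.97 without the 2 mice farthest from the median. Of 36665 probes, 0.123% had an r at least as high, with a median r of 0.286. In the 6 mice on MSX-3 the r of Clec7a was 0.189 (exact permutation p = 0.706) and 0.717 without the 2 mice farthest from the median. Too few mice remain to read this shift: the same step moved the r of Syk from 0.239 to -0.911. The difference between the agents was not tested. Axl ran the other way on MSX-3, with r = -0.885 and a Spearman coefficient of -0.943 (p = 0.00972 and 0.0167, two-sided exact permutation tests, not adjusted), and r was -0.702 without the 2 farthest mice. On H2O the r of Axl was 0.597, and over all 12 mice it was -0.0122 (p = 0.211, exact permutation test, and 0.969, permutation test). No other member had a p under 0.05 for r in any of these sets of mice, Hcls1 on MSX-3 being at -0.744 (exact permutation p = 0.0833). For Trem2, r was 0.296 in all 12 mice (p = 0.357, permutation test) and the Spearman coefficient was 0.14. In the 6 mice on H2O its r was 0.623 (exact permutation p = 0.192), and on MSX-3 it was -0.193 (exact permutation p = 0.767). Members other than Clec7a thus ran from 0.0743 (Card9) to 0.767 (Plcg2) on H2O.

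**Figure D5:**
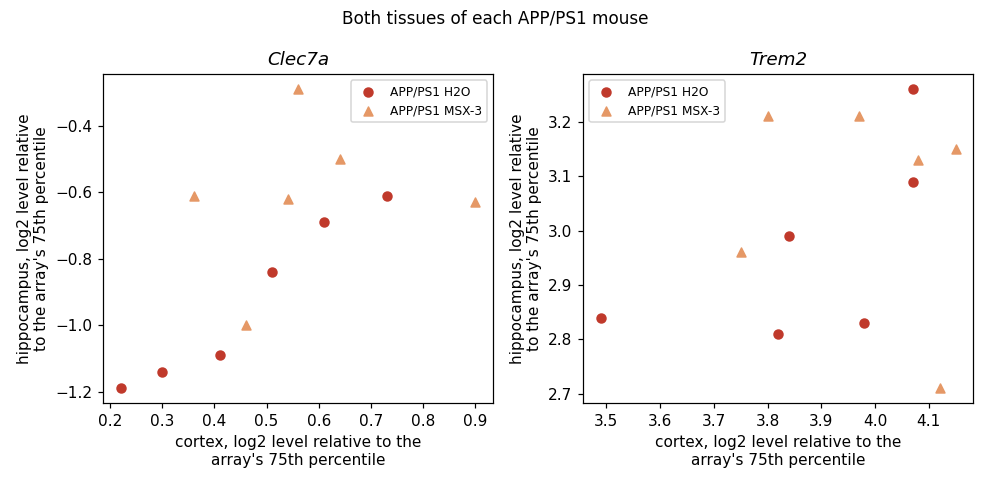
Log2 level in the cortex (x axis) against the hippocampus (y axis) for Clec7a and Trem2, 1 point per APP/PS1 mouse (circles H2O, triangles MSX-3). The 6 H2O mice rise together for Clec7a (r = 0.974), while the MSX-3 mice are scattered (r = 0.189, and 0.717 without the 2 farthest). For Trem2, r was 0.623 in the 6 H2O mice, -0.193 in the 6 MSX-3 mice and 0.296 in all 12 mice.

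Around the members, 79 further genes of the same pathways were listed, also with earlier results of these data known. Of the 70 tested in the cortex on H2O, 20 were higher in APP/PS1 mice and none was lower, and of the 69 tested in the hippocampus 10 were higher and none was lower, with the same background of 1.35% and 0.351%. Among paired receptors and adaptors, 3 of 8 rose in the cortex: Fcer1g, the Fc receptor gamma chain (1.55 ± 0.09), Hcst (above) and Clec5a, a receptor that uses Tyrobp (0.79 ± 0.11). Fcer1g rose in the hippocampus too (0.71 ± 0.11, adjusted p = 0.0139), while Clec5a was at 0.31 ± 0.1 (adjusted p = 0.294). Trem1, the relative of Trem2 on myeloid cells, differed by 0.15 ± 0.13 and Treml2 by 0.56 ± 0.46 in the cortex (adjusted p = 0.657 and 0.656).

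Among other lectin and Fc receptors that couple to Syk, 3 of 4 tested rose in the cortex, all of them Fc receptors for IgG: Fcgr1 (1.57 ± 0.11), Fcgr3 (1.36 ± 0.13) and Fcgr4 (1.25 ± 0.17). In the hippocampus Fcgr3 rose (0.7 ± 0.1, adjusted p = 0.00644). The lectin Clec4n differed by 0.37 ± 0.24 in the cortex (adjusted p = 0.573), and Clec4e, Clec4d and Clec9a were not kept. Among ligands and TAM receptors, 2 of 7 rose in the cortex and 0 of 7 in the hippocampus. These were Lgals3, galectin-3 (2.29 ± 0.2, adjusted p = 4.78e-05), and Pros1, protein S, a ligand of the TAM receptors (0.59 ± 0.1, adjusted p = 0.0102). Clu, a lipoprotein that TREM2 binds, differed by 0.25 ± 0.08 (adjusted p = 0.265).

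Of the kinases, adaptors and effectors, 5 of 25 rose in the cortex, among them Lat2, an adaptor related to LAT (1.4 ± 0.16), Rac2, a small GTPase of blood cells (1.11 ± 0.1), Arpc1b of the actin-nucleating complex (0.99 ± 0.11), and Lcp2 (SLP-76, 0.89 ± 0.12), the last named after its value was seen. Lat2 also rose in the hippocampus (0.89 ± 0.15, adjusted p = 0.0156). Of the inhibitors and sheddases, 4 of 16 rose in the cortex and 3 of 16 in the hippocampus. Lilrb4a, an inhibitory receptor, rose 15-fold in the cortex (3.91 ± 0.15, adjusted p = 1.13e-07) and by 2.61 ± 0.3 in the hippocampus. Fcgr2b, the inhibitory Fc receptor, rose by 1.65 ± 0.12 and 1.19 ± 0.15, and Ptpn6, the phosphatase SHP-1, by 1.52 ± 0.09 and 0.9 ± 0.13. Inpp5d, the phosphatase SHIP1 that limits signalling through Tyrobp, rose by 0.83 ± 0.16 in the cortex (adjusted p = 0.0234), with 0.54 ± 0.13 in the hippocampus (adjusted p = 0.146). Dok1, at 0.51 ± 0.1 in the cortex, was under the fold limit, and Cd300a, at 0.62 ± 0.16, had an adjusted p of 0.0874.

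Transcription factors of myeloid cells rose in 3 of 10 cases in both tissues, and these were Irf8 (1.62 ± 0.11 and 0.91 ± 0.09), Runx1 (1.26 ± 0.18 and 0.94 ± 0.14) and Irf5 (1.03 ± 0.17 and 0.61 ± 0.09). Nfatc1 and Nfatc2 differed by 0.47 ± 0.1 and 0.34 ± 0.13 in the cortex and were not called. Spi1, the gene of PU.1, was not kept. In mice on MSX-3, 23 of 70 of these pathway genes were higher in APP/PS1 cortex (1.29% of all probes) and 8 of 69 in APP/PS1 hippocampus (0.309%). MSX-3 against H2O called 0 of them in either genotype.

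Markers of other cells, from lists also chosen with earlier results known, were set beside these values. Of 11 genes that mark microglia in general, 5 were called higher in APP/PS1 cortex on H2O, against 1.35% of all probes. Among them were Aif1, Gpr34, Cx3cr1 and Csf1r, by 0.88 to 1.07. In the hippocampus 0 of 11 were called, against 0.351%. In each tissue 10 of 11 differences were positive, with medians of 0.49 (cortex) and 0.2 (hippocampus) and lowest values of -0.52 and -0.38. P2ry12 and Tmem119, markers of microglia at rest, differed by 0.45 ± 0.12 and 0.42 ± 0.1 in the cortex (adjusted p = 0.0983 and 0.0707). The summed linear level of the 11 genes, in units of the array's 75th percentile, was 98.6 to 134 in WT and 124 to 156 in APP/PS1 cortex on H2O, and 106 to 153 and 133 to 167 in the hippocampus. That of the 9 members was 11.7 to 13.3 and 32.4 to 46.5 in the cortex and 10.9 to 15.1 and 20.5 to 27.6 in the hippocampus. The part of the number of microglia in the rise of the members was not tested.

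Of 10 genes of border and infiltrating macrophages, 7 were tested and 1 was higher in the cortex on H2O (Ms4a7, 0.65 ± 0.13, adjusted p = 0.0231, named after its value was seen), with a median difference of 0.23. Their summed level was 4.46 to 9.06 in WT and 6.4 to 9.32 in APP/PS1 cortex, and 3.99 to 8.99 and 5.39 to 8.43 in the hippocampus. Ccr2, which defines blood monocytes, was well above background on 0 arrays of any group. Of 8 neutrophil genes 5 were tested and of 12 lymphocyte genes 9, and none was called in either tissue on H2O. The summed levels of both lists were 0.787 to 1.91 and 3.08 to 7.13 in WT cortex, and 0.804 to 2.13 and 3.08 to 7.19 in APP/PS1 cortex. In the hippocampus the neutrophil sums were 0.651 to 1.59 in WT and 0.815 to 1.57 in APP/PS1 mice, and the lymphocyte sums were 2.78 to 7.15 and 3.24 to 6.78. The genes Ltf of neutrophils and Ms4a1 of B cells were well above background on no array of any group. Other genes of these lists were detected. Depending on the group, 5 to 7 of the macrophage genes were well above background on every array. For the neutrophil genes this was 3 to 5, and for the lymphocyte genes 3 to 7.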

How the data were processed

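The authors hybridized total RNA of each tissue to Agilent 8x60k arrays and deposited scanner files and a series matrix with signal intensity values from Agilent Feature Extraction 10.7.3.1, background subtracted and not normalized between arrays. The 3022848 matrix values equal the scanner intensities within a relative tolerance of 1e-06. Here the log2 of the deposited intensity minus the array's 75th percentile over non-control spots was used, without outlier spots, and spots of a probe were averaged (56605 probes). RefSeq named 32994 probes, and 59 more, among them that of Clec7a, were named from the study's supplement. The probe lists of that supplement hold probes the study found changed between the genotypes, so unchanged probes could not be named this way. The brightest probe stood for a gene.

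Groups were compared with limma 3.58.1 in R 4.3.3, with files read by data.table (version 1.17.8), pair by pair. Files were joined with Python 3.11.15 and figures drawn with matplotlib 3.10.9. Tissue relations used 100000 permutations, or all orders for 6 mice. Each mouse is 1 replicate; the number of arrays limits the precision. Known changes were added to 200 probes of the real arrays, group means removed, and sought at an adjusted p under 0.05 without a fold limit. On H2O, a log2 change of 0.585 (1.5-fold) was found for 20.5% of them in the cortex genotype comparison. It was found for 32.5% in the hippocampus and 7.5% for the tissue difference, and a change of 1 for 71.5%, 73.5% and 56.5%. Small changes could thus be missed, and comparisons of MSX-3 with H2O were not tested this way. Named genes were the members, list genes called in both tissues on H2O, up to 3 more per list by cortex p, and the 5 genes most like Trem2 and Clec7a. A few genes that this rule names are not reported here. The members and lists were chosen with earlier results of these data known. Pairing of tissues by mouse follows from the labels; after group means were subtracted, the correlation between tissues had a median of 0.0384 over 22 mice (-0.52 to 0.499). Alternatives covered background correction, normalization, filters, spread, blocks, samples and probes.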

Additional observations from a re-analysis of the deposited data

Results flagged for a closer look

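The genotype difference differed between the tissues by the direct test for 10 combinations of gene and agent. That test took both tissues of a mouse as separate samples. With the mouse as a block, Tyrobp on H2O and Hcls1 and Vav1 on MSX-3 were not called (above). With the slide as a block, no member was called on MSX-3. On H2O the cortex value exceeded the hippocampus value on the log2 scale by 1.03 for Trem2, 1.07 for Tyrobp, 2.2 for Clec7a, 0.84 for Plcg2 and 0.74 for Hcls1. On MSX-3 it did so by 1.18 for Trem2, 1.3 for Tyrobp, 1.97 for Clec7a, 0.88 for Hcls1 and 0.82 for Vav1. Of 64 sets of a member and a group, 0 held an array far from the others of its group by Dixon's criterion, which chance alone meets in about 1 of 20.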

How the results depend on the processing

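No called result changed direction, while some differences that were not called did change sign, such as that of Axl between the genotypes in the hippocampus on H2O (-0.01 to 0.43 over the alternatives). Of the counts of members called, 179 stayed within 1.5 times their main value under an alternative and 12 did not. The 179 include counts of 0 that stayed 0, as for MSX-3 against H2O. They also include reruns on the series matrix, whose values equal the scanner intensities. Leaving out 1 mouse gave 4 to 5 calls for the hippocampus on H2O and for both tissue differences, 6 and 7 for the cortex on H2O and MSX-3, 3 for the hippocampus on MSX-3, 2 for WT cortex against hippocampus and 0 for MSX-3 against H2O. With the 2 arrays without a found grid included, the count was 2 for the cortex on MSX-3 (7 without them) and 0 for both tissue differences (5) and for WT cortex against hippocampus (2). In the hippocampus on H2O (5 in the main analysis) it was 1 with the slide as a block, which rests there on slides 2 and 5. It was 3 with the scan day as a block, and 3 with all 4 groups and the slide as a block. The tissue difference on MSX-3 had 0 calls with the slide as a block and 3 with the mouse as a replicate block, and WT cortex against hippocampus had 1 with normexp and 1 with the mouse as a replicate block. The replicate block changed no other count by over 1.5 times. The relation of the tissues, adjusted over the 9 relations, had 0 members in all mice and 1, Clec7a, on H2O alone. The cause of these changes was not tested. The slide block could not be fitted for the cortex on MSX-3. The call of Hcls1 in the hippocampus on MSX-3 appeared under 6 alternatives. Probes near background, such as that of Clec7a in WT mice, limit the folds.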
